A study of Homo sapiens with 6 samples.

Results

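The 78 genes described here encode proteins of the mitochondrial ribosome. They were the gene names made of MRPL or MRPS, a number and at most 1 further letter, and they were 78 of the 34644 gene names in the deposited tables. The set held 49 MRPL names and 29 MRPS names. Read counts of lines sharing a name were summed, which concerned 5 of the genes, and 76 of the 78 had enough counts to be tested. MRPL23 and MRPS24 did not. The rule reads names and no measured value, although the set was proposed with earlier results of these data known.

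The series compared 3 libraries of cells given a PRDM16 lentivirus with 3 libraries of cells given the NC lentivirus, the negative control. PRDM16 is a zinc finger transcription regulator best known from brown fat, where it raises genes of mitochondrial respiration. All 6 libraries came from HPC, a human podocyte line labelled WT for genotype, kept in high glucose and harvested at 24 h. The sources used here do not give how much glucose was used, which promoter drove the virus, its dose, or whether the 3 libraries of a group were separate cultures, so p-values measure the spread between these libraries, which may be technical. The 6 libraries include no cells in low glucose and no cells without virus.

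The mitochondrial ribosome translates the few messages of the mitochondrial genome, which encode core subunits of the respiratory chain and of ATP synthase. Its RNAs are transcribed inside the organelle, whereas all of its proteins are encoded in the nucleus, made in the cytosol and imported. Some of these proteins descend from the bacterial ribosome and others were added during mitochondrial evolution. Podocytes are the filtering cells of the glomerulus, and their respiration was not measured here.

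Library totals were 20147135, 28730146 and 41280350 counts in PRDM16 libraries 1 to 3, against 22460881, 27655378 and 20969179 in NC libraries 1 to 3. A floor of 3 counts lay between 0.0727 and 0.149 CPM (counts scaled to the library size). PRDM16 itself had 11, 18 and 24 counts in the PRDM16 libraries and 0 in each NC library. The former is a low level, at 0.572, 0.647 and 0.577 CPM. Its adjusted p was 0.000132 in edgeR's quasi-likelihood test with Benjamini-Hochberg adjustment. The defining podocyte markers NPHS1 and WT1 had at most 3 and 4 counts, so the podocyte identity rests on the label together with genes such as PODXL, at 107.7 to 129.5 CPM of the library total, and SYNPO, at 27.83 to 30.97 CPM. Epithelial PAX8 stood at 211.2 to 262.4 CPM, and the summed level of 6 parietal and tubular markers was 2425 to 2542 CPM in the PRDM16 libraries and 2121 to 2349 CPM in the NC libraries. Most of that sum was KRT8, at 1211 to 1582 CPM, and KRT18, at 596.8 to 732.4 CPM. Of these 6 markers, CDH1 and CUBN were at most 1.113 and 0.5424 CPM, and LRP2 was at 0 in every library. The sum of 3 leukocyte markers, nearly all of it the lysosomal CD68, was 172.6 to 178.7 CPM in the PRDM16 libraries and 140.9 to 161.6 CPM in the NC libraries, with CD3E at 0 throughout. The part of these differences in the results below was not tested. In such bulk samples, fewer cells of a type and less RNA per cell cannot be told apart.

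The genes were expressed well above the typical gene. Their mean TPM (a level scaled to gene length and to the library) over the 6 libraries had a median of 77.7, against 12.7 for all tested genes, with 31 genes over 100 TPM and 5 under 10 TPM. The 4 highest were MRPL49, with 436.1 ± 28.8 TPM, MRPL37, with 429.7 ± 34.6 TPM, MRPS6, with 362 ± 17.7 TPM, and MRPL14, with 330.3 ± 19.3 TPM (mean ± SD, n = 6 libraries). MRPL49 and MRPL37 did not differ beyond their spread. The lowest were MRPL23, at 0.176 TPM, MRPS24, at 0.829 TPM, MRPL42, at 6.43 TPM over a listed length of 15665 bases, and MRPS18B, at 6.79 TPM. Together the 78 genes took 0.859%, 0.849% and 0.814% of all TPM in PRDM16 libraries 1 to 3, against 0.815%, 0.784% and 0.801% in NC libraries 1 to 3. The first and second PRDM16 libraries held the largest shares, and the third lay within the NC range.

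With the PRDM16 virus the set sat a little higher than in the NC libraries, by amounts near the spread between libraries, and no single gene passed the test. Of the 76 tested genes, 59 had a positive and 17 a negative log2 fold change (PRDM16 over NC), against 7122 positive and 7931 negative of all 15053 tested genes. The median log2 fold change was 0.18, with a range of -0.30 to 0.52, against -0.021 for all tested genes. At an adjusted p under 0.05 in edgeR's quasi-likelihood test, 0 of the 76 genes were called, beside 18 of all tested genes (0.12%). The DESeq2 test called 1, MRPL4 (adjusted p = 0.0341), where it called 0.179% of all tested genes, and limma-voom called 0. Without a filter on low counts edgeR called 3, MRPL4, MRPL57 and MRPS18A, where it called 0.451% of 25264 genes.

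Below that strict threshold the genes leaned to one side. An unadjusted p under 0.05 was reached by 23 of the 76 with a higher level in the PRDM16 libraries and by 0 with a lower level, while 9.8% of all tested genes did so upward and 7.08% downward. The groups did not overlap, with the PRDM16 libraries above, for 20 of the 76, where 12.4% of all tested genes were so placed, and did not overlap with the PRDM16 libraries below for 4 (MRPL1, MRPL30, MRPL42 and MRPL47), where 8.7% were. The count of 23 depended on single libraries: it was 8 without PRDM16 library 1, 13 without PRDM16 library 2 and 12 without NC library 2. The shares over all tested genes in these smaller fits are not given here, so these counts have no background beside them. The median without NC library 2 was 0.12.

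**Figure D1:**
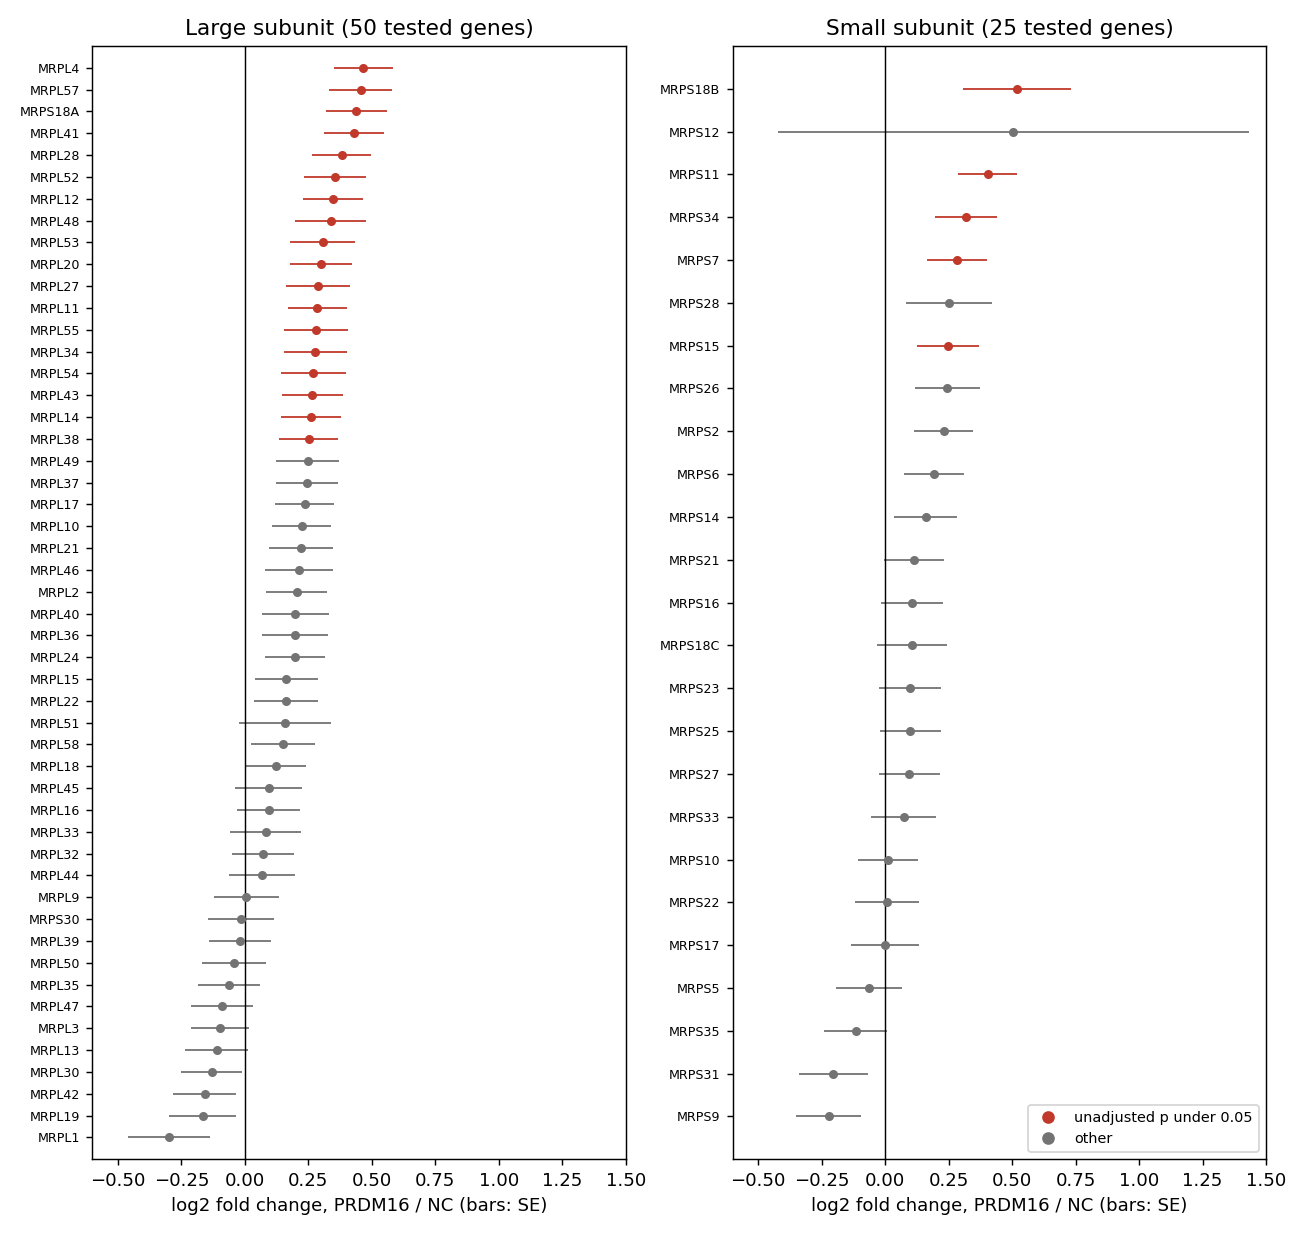
Log2 fold change (PRDM16 over NC) with its standard error for each tested gene, with the 50 genes of the large subunit on the left and the 25 of the small subunit on the right; red marks an unadjusted p under 0.05. Points run from -0.30 for MRPL1 to 0.52 for MRPS18B, and all red points lie to the right of 0. MRPS36, which belongs to neither subunit, is not drawn.

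The promoters of 5 genes are shown as examples of the range of base composition and motifs in the set: MRPL4, MRPS18A and MRPS11, which stood higher in all PRDM16 libraries, MRPL41, the most G- and C-rich by its transcripts, and MRPL19, whose log2 fold change was negative. Each is the 250 bases before the RefSeq start on GRCh38.p14, written 5′ to 3′ on the gene's strand, at chr19:10251701-10251950 (plus) for MRPL4, chr6:43687792-43688041 (minus) for MRPS18A, chr9:137551629-137551878 (plus) for MRPL41, chr15:88467458-88467707 (plus) for MRPS11 and chr2:75646533-75646782 (plus) for MRPL19. Capitals mark matches on either strand to the motifs named after SP1 (GGGCGG), ETS factors (CCGGAAG) and YY1 (ATGGCGGC). By the exon coordinates of the deposited tables these stretches lie upstream of the genes, except for 2 exon bases in the window of MRPS18A.
MRPL4: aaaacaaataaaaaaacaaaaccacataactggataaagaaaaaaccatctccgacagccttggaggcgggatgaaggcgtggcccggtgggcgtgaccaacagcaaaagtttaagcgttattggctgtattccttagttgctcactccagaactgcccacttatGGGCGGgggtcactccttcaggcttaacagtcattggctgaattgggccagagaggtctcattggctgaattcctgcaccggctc
MRPS18A: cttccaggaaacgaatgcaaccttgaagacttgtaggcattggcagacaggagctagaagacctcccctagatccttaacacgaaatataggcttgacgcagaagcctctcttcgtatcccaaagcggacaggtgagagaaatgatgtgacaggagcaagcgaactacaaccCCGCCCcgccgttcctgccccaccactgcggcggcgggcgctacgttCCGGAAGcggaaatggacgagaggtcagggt
MRPL41: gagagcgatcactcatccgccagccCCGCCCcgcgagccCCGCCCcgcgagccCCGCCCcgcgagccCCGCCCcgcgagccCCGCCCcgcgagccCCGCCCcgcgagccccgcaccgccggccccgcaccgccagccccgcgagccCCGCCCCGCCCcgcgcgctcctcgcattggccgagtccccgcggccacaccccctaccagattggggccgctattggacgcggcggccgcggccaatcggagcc
MRPS11: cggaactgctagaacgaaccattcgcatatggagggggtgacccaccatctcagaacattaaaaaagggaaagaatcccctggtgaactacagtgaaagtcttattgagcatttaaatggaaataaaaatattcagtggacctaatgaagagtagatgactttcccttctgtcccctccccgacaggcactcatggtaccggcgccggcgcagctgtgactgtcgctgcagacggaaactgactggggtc
MRPL19: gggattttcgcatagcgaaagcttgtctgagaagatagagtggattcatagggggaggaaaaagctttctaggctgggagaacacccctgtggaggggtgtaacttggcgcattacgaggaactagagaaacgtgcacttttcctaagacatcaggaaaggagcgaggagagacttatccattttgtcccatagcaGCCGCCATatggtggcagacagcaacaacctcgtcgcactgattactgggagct
MRPL41 held 8 matches, all of SP1, in a window of 82.8% GC, whereas the window of MRPS11 held 0 matches at 49.2% GC. MRPL4 and MRPL19 held 1 match each and MRPS18A 2.

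The large subunit holds the peptidyl transferase centre and the exit tunnel. Of its 50 tested proteins, 39 had a positive log2 fold change, and the median was 0.20. An unadjusted p under 0.05 was reached by 18 upward and 0 downward, where 9.8% and 7.08% of all tested genes did so. The 4 with the smallest p were MRPL4, MRPL57, MRPS18A and MRPL41.

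MRPL4, a protein of bacterial ancestry that reaches into the exit tunnel, had 109.6, 106.2 and 99.9 CPM in the PRDM16 libraries, against 85.4, 69.5 and 73.4 CPM in the NC libraries. Every PRDM16 library lay above every NC library. Its log2 fold change was 0.47 ± 0.12 (SE), with an adjusted p of 0.0942 in edgeR's quasi-likelihood test, and leaving out 1 library at a time gave 0.41 to 0.54. Without NC library 1 it passed (adjusted p = 0.0459).

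MRPL57, a protein without a bacterial counterpart, had 65.4, 60.2 and 59.4 CPM in the PRDM16 libraries, against 50.4, 37.4 and 47.0 CPM in the NC libraries. NC library 2 was the lowest and the groups did not overlap. The log2 fold change was 0.46 ± 0.12 (edgeR adjusted p = 0.139).

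MRPS18A is named for the small subunit but sits in the large one, and is 1 of 3 human relatives of a single bacterial protein. It had 82.2, 77.1 and 75.2 CPM in the PRDM16 libraries, against 65.2, 50.8 and 56.9 CPM in the NC libraries. Again the groups did not overlap, at a log2 fold change of 0.44 ± 0.12 (edgeR adjusted p = 0.139). Of its exon bases, 50.8% also belong to RSPH9 on the other strand, and since the strand setting of the counting is not given, reads of the pair could not be told apart.

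Its relatives behaved unlike it in level and spread. MRPS18B of the small subunit had 5.30, 3.92 and 3.41 CPM in the PRDM16 libraries, against 3.84, 2.27 and 2.64 CPM in the NC libraries, with overlapping groups and a log2 fold change of 0.52 ± 0.21 (edgeR adjusted p = 0.265). It is listed at 7 places, and 95.9% of its counts stood on alternate listings outside the chromosome, so its low level is uncertain. MRPS18C, which keeps the place of the bacterial protein, had 13.5, 12.8 and 12.5 CPM in the PRDM16 libraries, against 12.1, 11.1 and 12.9 CPM in the NC libraries, a log2 fold change of 0.11 ± 0.14 (edgeR adjusted p = 0.677). Of its exon bases, 83.6% are shared with ABRAXAS1 on the other strand.

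MRPL41, a protein found only in mitochondrial ribosomes, had 76.1, 73.8 and 66.6 CPM in the PRDM16 libraries, against 54.7, 49.0 and 56.9 CPM in the NC libraries. The groups did not overlap, and the log2 fold change was 0.43 ± 0.12 (edgeR adjusted p = 0.141). Its transcripts, with a GC content of 71.9%, were the richest in G and C of the set, and its listed length of 582 bases was among the shortest.

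MRPL28, of bacterial ancestry, had 127.4, 124.2 and 108.9 CPM in the PRDM16 libraries, against 94.6, 86.4 and 95.7 CPM in the NC libraries, a log2 fold change of 0.38 ± 0.12 (edgeR adjusted p = 0.192). MRPL12, the stalk protein that recruits translation factors and that also binds the mitochondrial RNA polymerase POLRMT, had 133.3, 117.2 and 113.2 CPM in the PRDM16 libraries, against 100.7, 85.7 and 99.3 CPM in the NC libraries. Its log2 fold change was 0.35 ± 0.12 (edgeR adjusted p = 0.231). MRPL52, without a bacterial counterpart, was placed likewise, with 70.1, 63.5 and 57.3 CPM in the PRDM16 libraries and 48.6, 44.4 and 56.3 CPM in the NC libraries (log2 fold change 0.36 ± 0.12, edgeR adjusted p = 0.234). In these 3 genes no NC library reached a PRDM16 library, but for MRPL52 the highest NC library was within about 1 CPM of the lowest PRDM16 library. MRPL58, a release factor that frees stalled ribosomes and was built into the large subunit, had 31.2, 32.3 and 29.8 CPM in the PRDM16 libraries, against 29.5, 24.3 and 30.3 CPM in the NC libraries, and the groups overlapped (log2 fold change 0.15 ± 0.13, edgeR adjusted p = 0.499).

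The most abundant large subunit genes had smaller differences, and their groups overlapped in 2 of 3. MRPL49 had 421, 369 and 341 CPM in the PRDM16 libraries, against 342, 282 and 329 CPM in the NC libraries, a log2 fold change of 0.25 ± 0.12 (edgeR adjusted p = 0.299). MRPL37 had 337, 317 and 297 CPM in the PRDM16 libraries, against 305, 235 and 262 CPM in the NC libraries, a log2 fold change of 0.25 ± 0.12 (edgeR adjusted p = 0.299). The third PRDM16 library lay among the NC libraries for both. MRPL14, which lies at the interface with the small subunit, had 199, 187 and 159 CPM in the PRDM16 libraries, against 156, 141 and 157 CPM in the NC libraries, and did not overlap (log2 fold change 0.26 ± 0.12, edgeR adjusted p = 0.275).

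The small subunit binds the messenger RNA and reads its codons. Of its 25 tested proteins, 20 had a positive log2 fold change, and 5 of these reached an unadjusted p under 0.05, where 9.8% of all tested genes did so upward. The median of the small subunit was 0.11. Whether this median differs from that of the large subunit was not tested.

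MRPS11, a small subunit protein of bacterial ancestry, had 93.9, 88.7 and 83.6 CPM in the PRDM16 libraries, against 71.9, 59.6 and 69.8 CPM in the NC libraries. The groups did not overlap. The log2 fold change was 0.40 ± 0.12 (edgeR adjusted p = 0.165). Its neighbour MRPL46 starts 320 bases away on the opposite strand and had 25.7, 22.9 and 19.9 CPM in the PRDM16 libraries, against 21.6, 16.8 and 20.6 CPM in the NC libraries, with overlapping groups (log2 fold change 0.21 ± 0.13, edgeR adjusted p = 0.371).

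Of 12 members linked to inherited disorders of combined oxidative phosphorylation, 11 had a positive log2 fold change and 3 an unadjusted p under 0.05, where 9.8% of all tested genes had one upward, with a median of 0.13. With the length trend removed, 0 of the 12 reached an unadjusted p under 0.05 in edgeR. These 3 were MRPL12, MRPS34 and MRPS7. MRPS34, a protein without a bacterial counterpart, had 52.7, 53.7 and 48.4 CPM in the PRDM16 libraries, against 43.0, 37.5 and 43.7 CPM in the NC libraries (log2 fold change 0.32 ± 0.12, edgeR adjusted p = 0.259). MRPS7, in the head of the small subunit, had 99.0, 91.0 and 79.2 CPM in the PRDM16 libraries, against 77.1, 68.2 and 75.9 CPM in the NC libraries (log2 fold change 0.28 ± 0.12, edgeR adjusted p = 0.267). Both genes had non-overlapping groups. The abundant MRPS6 had 140, 142 and 115 CPM in the PRDM16 libraries, against 121, 105 and 122 CPM in the NC libraries, with overlap (log2 fold change 0.19 ± 0.12, edgeR adjusted p = 0.367).

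MRPS12, which forms part of the decoding centre, varied most. It had 66, 485 and 222 counts in the PRDM16 libraries, against 202, 229 and 36 in the NC libraries. Libraries of the same group differed several-fold, so its log2 fold change of 0.50 ± 0.93 carries no direction, and leaving out 1 library at a time gave -0.48 to 0.87. Of its counts, 99.9% stood on a second listing outside chromosome 19. The 2 untested genes were near the floor: MRPL23 had 7, 5 and 8 counts in the PRDM16 libraries and 5, 1 and 1 in the NC libraries, and MRPS24 had 4, 8 and 4 counts in the PRDM16 libraries and 5 in each NC library. MRPL23 is listed at 2 places, with 7.41% of its counts outside the chromosome listing. How reads matching both places were counted is not given, so its low level is uncertain. Of the exon bases of MRPS24, 90.9% also belong to the read-through gene URGCP-MRPS24 on the same strand.

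**Figure D2:**
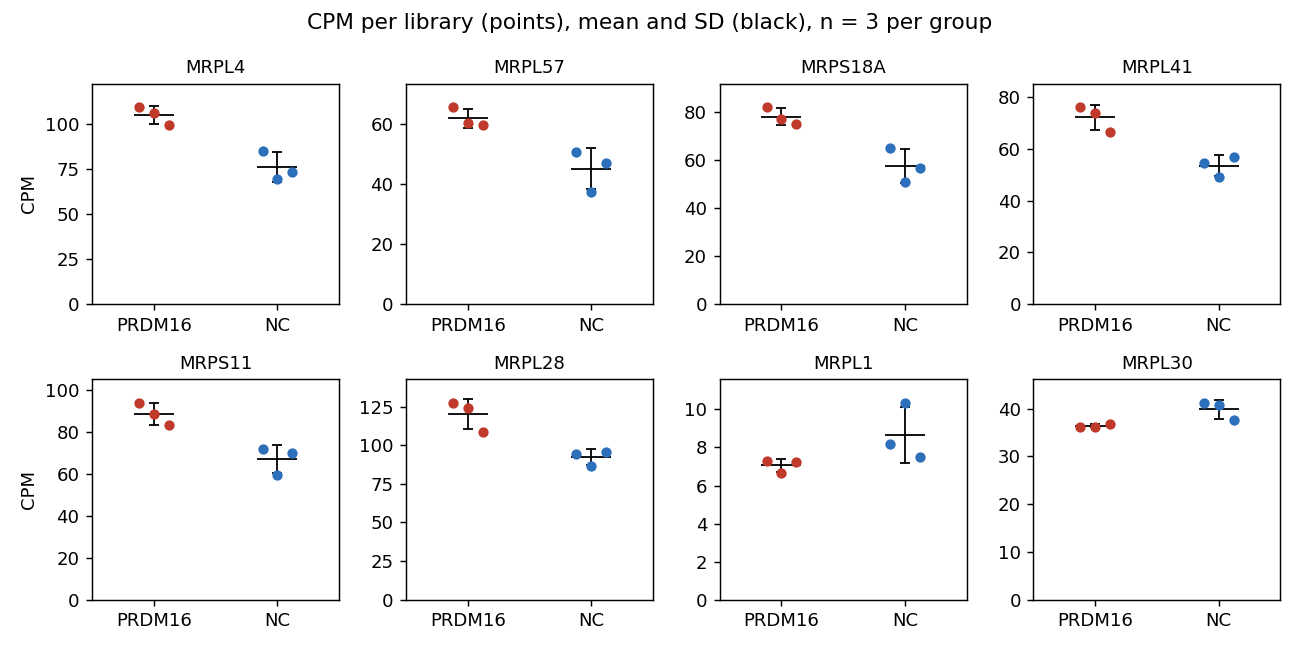
CPM of 8 genes in each library (points) with mean and SD (black lines, n = 3 per group); every axis starts at 0 CPM. For MRPL4, MRPL57, MRPS18A, MRPL41, MRPS11 and MRPL28 all PRDM16 points lie above all NC points, and for MRPL1 and MRPL30 all lie below.

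The 17 genes with a negative log2 fold change were nearer to 0. MRPL1, which forms the stalk where spent transfer RNA leaves the large subunit, had 7.28, 6.65 and 7.26 CPM in the PRDM16 libraries, against 8.16, 10.3 and 7.48 CPM in the NC libraries. The groups did not overlap, although the nearest libraries differed little, and the log2 fold change was -0.30 ± 0.16 (edgeR adjusted p = 0.319). MRPL42, without a bacterial counterpart, had 33.9, 35.0 and 35.0 CPM in the PRDM16 libraries, against 35.6, 43.7 and 36.6 CPM in the NC libraries (log2 fold change -0.16 ± 0.12, edgeR adjusted p = 0.469). MRPL30 had 36.2, 36.2 and 36.8 CPM in the PRDM16 libraries, against 41.2, 40.9 and 37.7 CPM in the NC libraries (log2 fold change -0.13 ± 0.12, edgeR adjusted p = 0.540). In MRPL1 and MRPL42 it was NC library 2 that stood highest.

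For the next genes on this side the groups overlapped. MRPS9 had 17.4, 20.9 and 18.6 CPM in the PRDM16 libraries, against 19.9, 23.7 and 22.8 CPM in the NC libraries (log2 fold change -0.22 ± 0.13, edgeR adjusted p = 0.341). MRPS31 had 12.8, 12.6 and 15.02 CPM in the PRDM16 libraries, against 14.97, 16.8 and 14.8 CPM in the NC libraries (log2 fold change -0.20 ± 0.14, edgeR adjusted p = 0.398). Log2 fold changes were -0.17 ± 0.13 for MRPL19, -0.12 ± 0.12 for MRPS35 and -0.11 ± 0.13 for MRPL13, with edgeR adjusted p of 0.479, 0.604 and 0.622. Of the exon bases of MRPL19, 84.4% are shared with GCFC2 on the other strand. MRPL47 was the fourth gene whose PRDM16 libraries all lay below the NC libraries. MRPS36, despite its name now placed in the 2-oxoglutarate dehydrogenase complex, had 8.89, 13.2 and 11.2 CPM in the PRDM16 libraries, against 7.86, 13.8 and 13.3 CPM in the NC libraries (log2 fold change -0.070 ± 0.20, edgeR adjusted p = 0.863).

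Libraries of the same group differed as much as the groups did. As the deviation of log2 CPM from each gene's mean over the 6 libraries, the median of the 76 genes was 0.16, 0.14 and -0.041 in PRDM16 libraries 1 to 3, against -0.062, -0.21 and -0.007 in NC libraries 1 to 3. PRDM16 libraries 1 and 2 were high and NC library 2 was low, while PRDM16 library 3 lay below NC library 3. PRDM16 library 1 was the highest of the 6 for 39 genes, and NC library 2 was the lowest for 48. The same deviations over all tested genes had medians between -0.018 and 0.011.

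**Figure D3:**
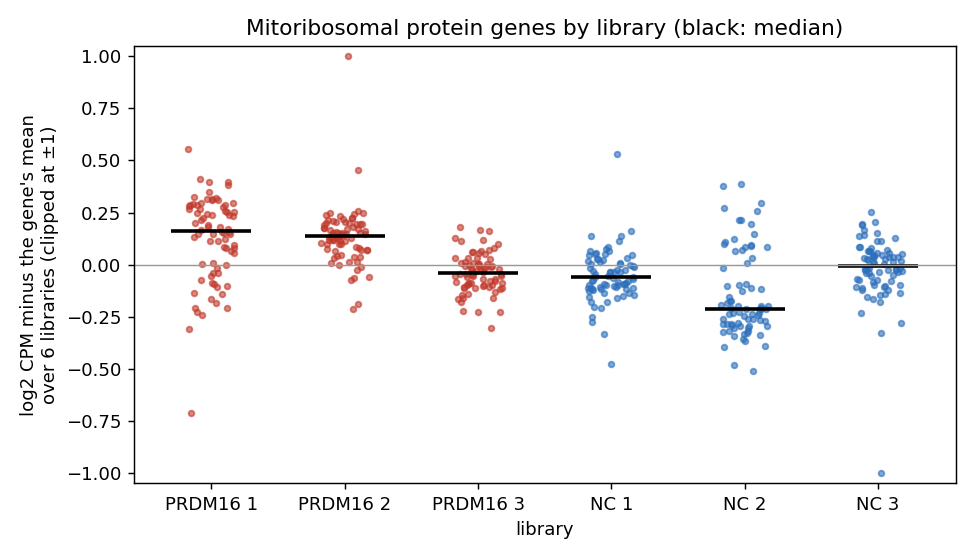
Deviation of log2 CPM from the gene's mean over 6 libraries (vertical axis, clipped at 1 in either direction) for the 76 tested genes (points) in each library, with the median in black. PRDM16 libraries 1 and 2 stand at medians of 0.16 and 0.14, and NC library 2 stands at -0.21 with a second cloud of points above 0.

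Gene length moved with these differences. The genes had a median listed length of 1587 bases, against 4086 for all tested genes, and 50 of the 76 were in the shortest quintile of all tested genes (111 to 2090 bases). There the median log2 fold change was 0.20 for these 50 and 0.15 for the other genes, and 17 reached an unadjusted p under 0.05 upward, where 18.9% of the others did. In the next quintile (2091 to 3332 bases) the medians were 0.16 for 15 mitoribosomal genes and 0.072 for the others. Of the 6 genes in the middle quintile (3334 to 4899 bases), 2 had a positive log2 fold change, and the median was -0.053, against -0.026 for the others. The 2 quintiles of longer genes held 2 and 3 mitoribosomal genes, with medians of 0.25 and -0.16, against -0.096 and -0.17 for the others. A trend of log2 length was then fitted in each library over all tested genes and removed. With it gone, the median of the 76 genes was 0.073, against -0.011 for all tested genes, and 49 were positive. At an unadjusted p under 0.05, 8 genes were then higher in the PRDM16 libraries and 3 (MRPL1, MRPS9 and MRPS31) lower, where 8.44% and 4.6% of all tested genes were, and 0 of the 76 passed the adjusted threshold in edgeR. Without NC library 1 as well, 2 passed, MRPL4 (adjusted p = 0.0415) and MRPS11 (adjusted p = 0.0413). That median ranged between 0.025 without PRDM16 library 2 and 0.14 without PRDM16 library 3.

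Base composition moved with them still more closely. Across the 76 genes, the log2 fold change and the GC content of the transcripts had a Spearman rho of 0.774, and it was 0.732 after the length trend was removed; over 13575 tested genes with a GC value it was 0.650 before. These are descriptions across genes that share the same 6 libraries, and genes are not independent replicates. In the quintile of lowest GC content (31.72% to 42.66%), 6 of 16 mitoribosomal genes had a positive log2 fold change and 0 reached an unadjusted p under 0.05. In the quintile of highest GC content (58.96% to 74.69%), 12 of 12 were positive and 9 reached it, where 36.3% of the other genes did so upward. In each quintile the median of the mitoribosomal genes was above that of the others, at -0.032 against -0.21 in the lowest, 0.18 against -0.027 in the middle and 0.30 against 0.24 in the highest. Within single libraries the rho between deviation and GC content was 0.513, 0.475 and 0.302 in PRDM16 libraries 1 to 3, against 0.157, -0.717 and -0.234 in NC libraries 1 to 3. NC library 2 thus had the strongest relation, and a negative one. The part of base composition in the differences was not tested beyond removing its trend.

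**Figure D4:**
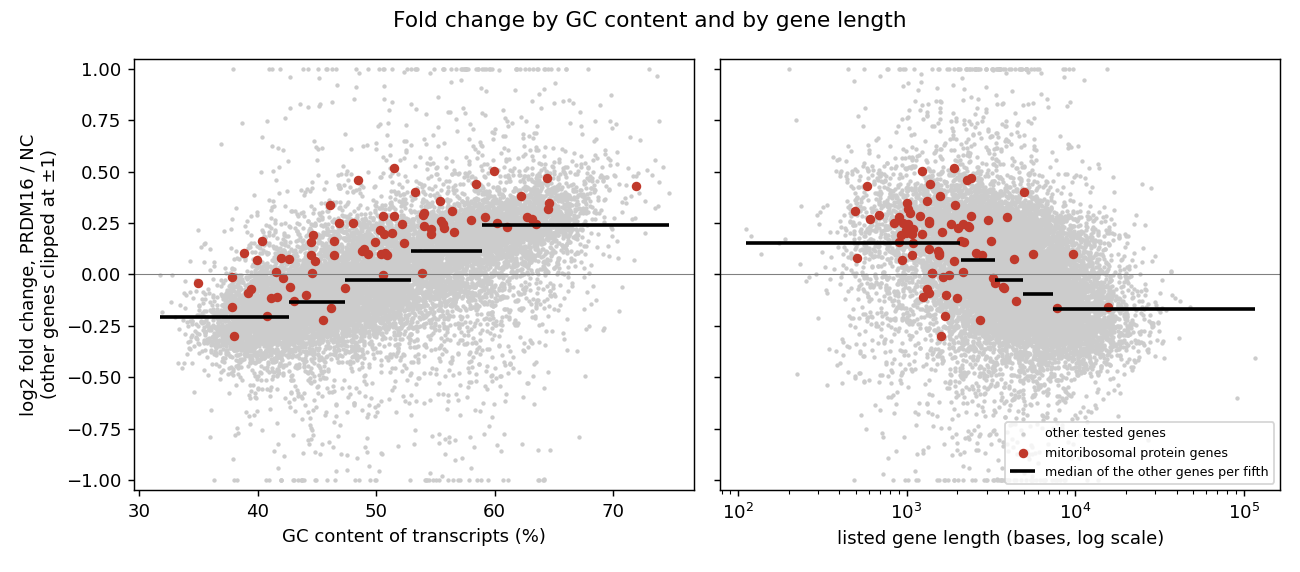
Log2 fold change (PRDM16 over NC) against GC content of the transcripts in percent (left) and listed length in bases on a log axis (right) for the mitoribosomal genes (red) and the other tested genes (grey, clipped at 1 in either direction); black lines are medians of the other genes in each quintile. Red points climb with GC content (Spearman rho 0.774), and 50 of the 76 lie in the shortest quintile.

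With both trends removed, the median of the 76 genes was 0.082, against 0.005 for all tested genes with a GC value, and 58 were positive. Single genes moved by different amounts. MRPL57 and MRPS11 kept log2 fold changes of 0.45 and 0.39, MRPL4 had 0.19 and MRPS18A 0.22, while MRPL41, MRPL12 and MRPS34 turned to -0.080, -0.008 and -0.033. In the quintile of highest GC content the median was then -0.000, against 0.024 for the other genes, and in the lowest it was 0.090, against -0.009.

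**Figure D5:**
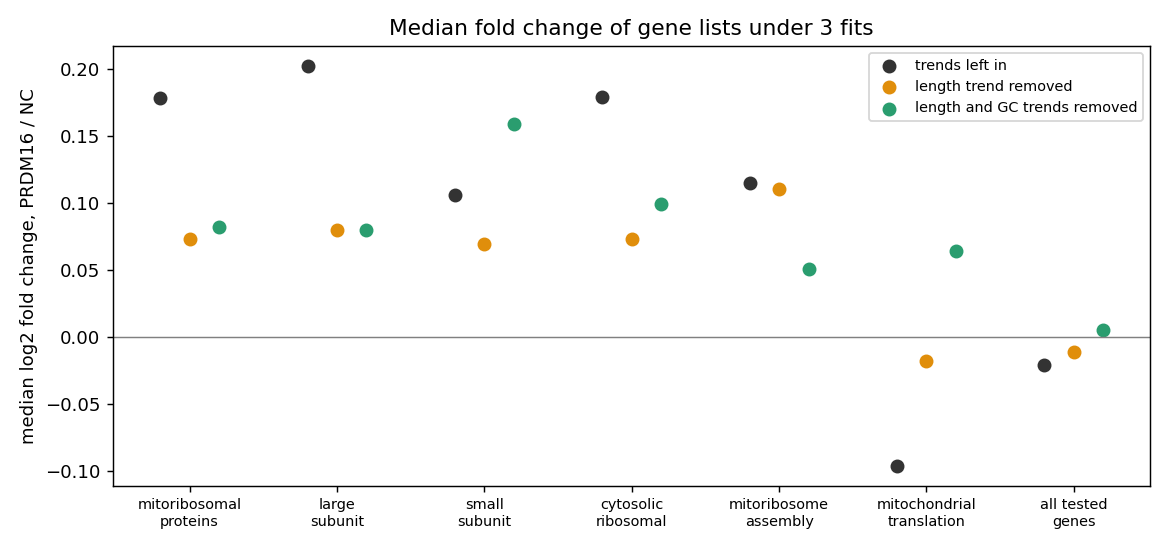
Median log2 fold change (PRDM16 over NC, vertical axis) of 7 groups of genes with trends left in (black), with the length trend removed (orange) and with length and GC trends removed (green). The mitoribosomal set reads 0.18, 0.073 and 0.082, beside -0.021, -0.011 and 0.005 for all tested genes.

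By ancestry the medians lay close together. Among 44 tested genes listed with a bacterial counterpart, 34 were positive and the median log2 fold change was 0.18. Among the 31 listed as added in mitochondrial evolution, 25 were positive and it was 0.20. The latter list held MRPS18A and MRPS18B, although both are relatives of a bacterial protein. Medians with these genes on the other side were not computed. The proteins of the cytosolic ribosome translate nuclear messages, and their genes are shorter still (median 1140 bases). Of 83 tested, 74 were positive, and the median log2 fold change was 0.18, or 0.073 with the length trend removed. An unadjusted p under 0.05 was reached by 20 upward and 0 downward, where 9.8% and 7.08% of all tested genes did so. For 10 of the 83 the groups did not overlap, with the PRDM16 libraries above, where 12.4% of all tested genes were so placed. Among the 76 mitoribosomal genes this number was 20. The cytosolic genes thus had the same median as the mitoribosomal genes with and without that trend, and the difference between the sets was not tested.

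Other genes of mitochondrial gene expression were taken as lists. Of 5 mitoribosomal proteins with other names, 4 had a positive log2 fold change (median 0.24). GADD45GIP1 of the large subunit had 123, 114 and 101 CPM in the PRDM16 libraries, against 90.7, 69.1 and 77.6 CPM in the NC libraries (log2 fold change 0.51 ± 0.12, edgeR adjusted p = 0.0799). AURKAIP1 of the small subunit had 181, 153 and 138 CPM in the PRDM16 libraries, against 130, 101 and 117 CPM in the NC libraries (log2 fold change 0.44 ± 0.12, edgeR adjusted p = 0.153). In both, the groups did not overlap.

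Of 28 assembly factors, which fold and modify the ribosomal RNA and dock the proteins, 20 were positive and 4 reached an unadjusted p under 0.05 upward, a share near the 9.8% over all tested genes (median 0.12). MPV17L2, which takes part in joining the subunits, averaged 56.2 ± 3.14 CPM in the PRDM16 libraries and 44.1 ± 4.86 CPM in the NC libraries (edgeR adjusted p = 0.235). The RNA helicase DDX28 averaged 25.7 CPM in the PRDM16 libraries and 20.3 CPM in the NC libraries (edgeR adjusted p = 0.265). Of 16 genes of mitochondrial translation outside the ribosome, 9 were negative, near the 7931 of 15053 over all tested genes. Their median was -0.096, or -0.018 with the length trend removed and 0.064 with both trends removed. Of the 16, 2 reached an unadjusted p under 0.05 upward and 1 downward, beside 9.8% and 7.08% of all tested genes. The groups did not overlap for 1 with the PRDM16 libraries above and for 3 with them below. Over all tested genes these shares were 12.4% and 8.7%. TACO1, which activates the translation of a cytochrome oxidase subunit, had a log2 fold change of 0.30 ± 0.12, and LRPPRC, which stabilises mitochondrial messages, one of -0.29 ± 0.12 (edgeR adjusted p = 0.265 and 0.267). The groups overlapped for TACO1, and for LRPPRC all PRDM16 libraries lay below all NC libraries.

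Of 5 genes of mitochondrial transcription, 4 were negative. The exception was the polymerase POLRMT, with 93.2, 89.7 and 86.7 CPM in the PRDM16 libraries, against 71.9, 70.2 and 73.6 CPM in the NC libraries. Its groups did not overlap, at a log2 fold change of 0.32 ± 0.11 (edgeR adjusted p = 0.244). TFAM, which packages and activates the mitochondrial genome, averaged 68.1 ± 4.34 CPM in the PRDM16 libraries and 76.8 ± 12.8 CPM in the NC libraries (log2 fold change -0.17 ± 0.12, edgeR adjusted p = 0.426). Of 10 genes listed as nuclear regulators of mitochondrial genes, 6 were negative, near the share over all tested genes. TFB1M, 1 of these 6 (log2 fold change -0.115), was also counted among the 28 assembly factors. An unadjusted p under 0.05 in edgeR was reached by 0 of the 10. These are too few genes to set against 9.8% upward and 7.08% downward over all tested genes. For 3 of the 10, GABPA among them, the groups did not overlap, with the PRDM16 libraries below, and for 0 with them above. Over all tested genes these shares were 8.7% and 12.4%. The coactivator PPARGC1B, with a log2 fold change of -0.38 ± 0.19, and the factor GABPA, with -0.26 ± 0.13, had the smallest p (edgeR adjusted p = 0.299 and 0.300).

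Many of the genes start close to the start of a neighbour on the opposite strand. Of the 76, 35 (46.1%) start within 1000 bases of such a start, against 29.3% of tested genes with a place on a chromosome. Both shares include neighbours that start inside the gene and run across its start, such as TMEM63B at MRPL14 and ABHD8 at MRPL34. The partners did not follow in one direction. MRPL49 starts 49 bases from FAU, which encodes a cytosolic ribosomal protein and had a log2 fold change of 0.37 (edgeR adjusted p = 0.251). MRPL57 starts 84 bases from SKA3 (log2 fold change -0.14), and MRPS18C starts 175 bases from HELQ (log2 fold change -0.41). MRPL43 starts 29 bases from TWNK, the mitochondrial DNA helicase, which had a log2 fold change of -0.11.

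For the set as a whole, promoter windows of 300 bases (250 before and 50 after the start) were found for 69 of the 78 genes and searched on both strands. The ETS motif was in 30 of them (43.5%), against 20.8% of 11726 tested genes and 12.2% of all 27305 promoters. The YY1 motif was in 19 (27.5%), against 6.85% of tested genes and 3.67% of all promoters. The NRF1 motif (GCGCA and GCGC with any 1 base between) was in 9 (13%), against 12.5% of tested genes and 6.98% of all promoters, and SP1 was in 42 (60.9%), against 74.3% of tested genes and 48.3% of all promoters. Matches of ETS and SP1 overlapped in 1 gene, MRPL53, and no other pair of motifs overlapped in the set. The median log2 fold change was 0.081 for the 18 tested genes with the YY1 motif and 0.22 for the 50 without it. For ETS it was 0.15 with and 0.20 without, and for NRF1 0.20 with and 0.16 without. A match describes letters in a window and not a bound site, and these medians were not tested.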

How the data were processed

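The 3 libraries of each group were grouped by their titles. Per the labels' protocols, RNA was extracted with Trizol, captured on oligo(dT) beads, primed with random hexamers and amplified by PCR. The submitters' processing notes name the build hg38. The sources used here name no aligner, counter, strand setting or annotation. The authors deposited whole-number counts per gene with FPKM and TPM values derived from them, per the file headers; the deposited FPKM values followed from counts, length and total.

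Counts were summed over lines sharing a gene name (38648 lines, 2008 names listed more than once, 7 broken lines mended). They were tested over the whole table with edgeR 4.0.16 (R 4.3.3): TMM scaling, a minimum count of 10 and total of 15, robust quasi-likelihood fit, Benjamini-Hochberg adjustment over 15053 genes. CPM of tested genes carry the TMM factors. Trends were natural splines (5 degrees of freedom) of log2 length, or of length and GC content (median over GENCODE transcripts of the gene name), fitted per library and used as offsets. DESeq2 1.42.0, limma 3.58.1, other scalings, no filter, unsummed lines, a replicate block and leaving out each library were alternatives. Counts were also simulated for 14908 genes with these groups, 1 spread shared by all genes and no trend of length or GC content. There, 24% of changes of log2 0.5 and 93% of log2 1 were called.

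The genes and lists were chosen with earlier results of these data known. Genes named were those passing, the 8 smallest p per direction, the 4 highest and 4 lowest by TPM, the MRPS18 relatives, MRPL12, MRPL58, MRPS36, the 3 smallest p of the disease list, POLRMT and the 2 smallest p of each related list. MRPS12, MRPL46, MRPL47 and the neighbours on the opposite strand were added after their values were seen. Libraries differed from each other by more than sampling noise (chi-square per degree of freedom 9.19 to 62.6), and counting limits cover counting error only. Motif windows are RefSeq promoters on GRCh38.p14. Values of 1 marker are not reported here.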

Additional observations from a re-analysis of the deposited data

How the results depend on the processing

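No direction of the set's median changed. It stayed between 0.12 and 0.26 when 1 library was left out, at 0.18 with a replicate block and at 0.19 without the genes of shared listings or exons, an alternative chosen after seeing the data; with the length trend removed it was 0.073 (0.075 with the block, 0.025 to 0.14 when 1 library was left out). The genes passing over the whole table numbered 18 (14 higher), 11 with RLE factors, 22 with upper-quartile factors (15 higher, 7 lower), 114 without a filter, 10 with lines unsummed, 11 with the length trend removed, 5 with both trends removed and 22 with the replicate block (11 higher, 11 lower), and 13 to 148 when 1 library was left out. Their split also moved: leaving out NC library 2 gave 5 higher against 8 lower, and leaving out NC library 3 gave 56 higher against 92 lower. Mitoribosomal genes passing numbered 0, but 3 without a filter, 1 in DESeq2 and 0 to 1 when 1 library was left out; with the length trend removed, 2 passed without NC library 1 (MRPL4 and MRPS11). Those with an unadjusted p under 0.05 numbered 23, 11 with the length trend removed, 12 with both trends removed, 20 with the replicate block and 8 to 32 when 1 library was left out. Matching shares over all tested genes are given above only for the full fit and with the length trend removed. Same-numbered libraries had correlations of deviations of 0.119, -0.124 and -0.153, and differently numbered libraries ranged from -0.112 to 0.239. Since both ranged widely, these values cannot decide whether the numbers mark a shared batch. Among the named genes, log2 fold changes crossed 0 for MRPL41 (-0.080), MRPL12 (-0.008), MRPS34 (-0.033), MRPL42 (0.134), MRPL30 (0.003) and MRPS36 (0.013) with both trends removed, for MRPL42 (0.011) and MRPS18C (-0.012) with the length trend removed, and for MRPS36 with 1 library left out (-0.301 to 0.079). Over all alternatives for the 26 named tested genes, 373 values kept direction and side of the threshold. Beyond the trend offsets and the fewer libraries, the cause of these shifts was not tested. With 3 libraries a group, most changes of log2 0.5 would go uncalled under the simulated setting, where 24% of them were called. That setting had 1 spread shared by all genes and no trend of length or GC content. Detection of smaller changes, or in the real libraries, was not tested.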
